A study of Homo sapiens with 8 samples.

Results

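Histone lysine methyltransferases and demethylases are the enzymes that add methyl groups to the lysines of histones and remove them. The 49 genes described here are a list of 29 methyltransferases (writers) and 20 demethylases (erasers), chosen by name and found among the 57500 genes of the deposited count table through Ensembl identifiers and GENCODE symbols. RNAseq was carried out on HEK293T cells, which derive from human embryonic kidney and express the large T antigen of SV40. Of 8 libraries, 4 came from cells given 100 µM DZNep for 48 h and 4 from cells given vehicle for 48 h (Control), and the libraries of each group carry the replicate numbers 1 to 4. No other genotype or agent is named for either group, the labels give DMEM as the medium where the methods give RPMI, and the study calls the replicates biological. DZNep, or 3-deazaneplanocin A, resembles adenosine and blocks AHCY, the hydrolase that clears S-adenosylhomocysteine, which each methyl transfer from S-adenosylmethionine leaves behind. The comparison asks which transcripts of these enzymes changed upon DZNep treatment.

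Histone lysine methyltransferases transfer methyl groups from S-adenosylmethionine to particular lysines, and S-adenosylhomocysteine inhibits the reaction. For 6 of the listed writers no histone lysine target is settled, so this activity is not claimed for them. They are still counted among the writers below. The erasers are either flavin-dependent oxidases (KDM1A and KDM1B) or Jumonji enzymes that use iron, oxygen and 2-oxoglutarate. Methylation of H3K4 and H3K36 is known from active promoters and transcribed gene bodies, that of H3K79 from transcribed genes, and that of H3K9, H3K27 and H4K20 mostly from silenced or compacted chromatin. Transcript levels do not measure the activity of the enzymes or the marks.

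All 49 transcripts passed the filter on low counts, as did 19171 genes in all, and the lowest count of any member in any library was 85. The transcripts were mostly abundant. The median member stood at the 83.5th percentile of average expression among the genes tested, and 45 of 49 lay above the median gene. Levels are given as normalized counts, which are counts divided by a size factor of each library. Compared per kb of the gene's canonical transcript, Control levels ran from 71.1 ± 10.3 (SD, n = 4) for KDM4D and 76.5 ± 17.7 for SETDB2 to 1600 ± 331 for KDM5C and 2800 ± 405 for KDM1A. The ranges of KDM4D and SETDB2 overlapped, while KDM1A stood apart from every other member. With DZNep, SETDB2 was the lowest (26.0 ± 2.59) and KDM1A again the highest (3030 ± 155).

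"Rose" and "fell" are used for an adjusted p under 0.05 in edgeR's quasi-likelihood test. Upon DZNep treatment, 10 members rose and 5 fell, while 34 did not pass the test. The members that rose made up 20.4% of the list, against 19.1% of all genes tested, and those that fell made up 10.2%, against 21.8% of all genes. With an absolute log2 fold change over 1 as well, 2 members were higher (KMT5B and KDM5B, against 10.6% of all genes) and 2 were lower (KDM4B and SETDB2, against 13.5%). These 4 members are 8.16% of the list, and the share among all genes was 24.2%. The median log2 fold change was 0.12 over the 49 members and -0.03 over all genes tested, with 29 members above 0 and 20 below. The 34 members that did not pass ranged from -0.59 to 0.49 on the log2 scale.

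**Figure D1:**
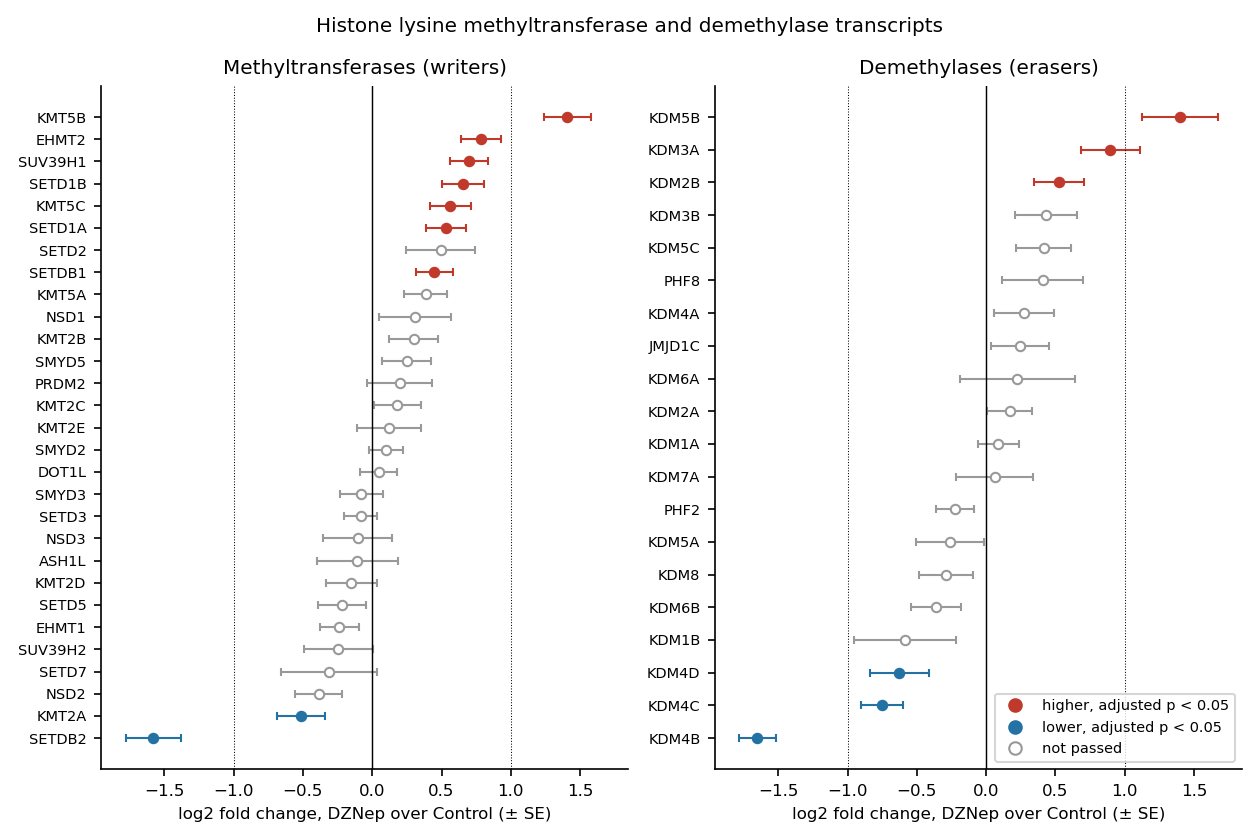
Log2 fold change (horizontal axis, DZNep over Control) of each of the 29 writers and 20 erasers, with the standard error as a bar. Filled red points rose (10), filled blue points fell (5), open points did not pass the test (34), and the dotted lines mark log2 fold changes of -1 and 1. KMT5B at 1.41 and KDM5B at 1.40 lie farthest to the right, and KDM4B at -1.65 and SETDB2 at -1.58 farthest to the left.

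Among the 29 writers 7 rose (24.1%) and 2 fell (6.90%), with a median log2 fold change of 0.12. Among the 20 erasers 3 rose (15%) and 3 fell (15%), with a median of 0.13. Of all genes tested, 19.1% rose and 21.8% fell. The eraser median depended on single libraries, from -0.00178 without Control 4 (writers 0.10) to 0.24 without DZNep 4 (writers 0.09). Summed per kb, writer transcripts exceeded eraser transcripts 1.56, 1.30, 1.43 and 1.63 times in Control 1 to 4 and 1.47, 1.35, 1.40 and 1.67 times in DZNep 1 to 4, so the balance of the 2 classes overlapped between the groups.

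The promoter windows of the 4 members past both thresholds are shown because they carry the largest changes in either direction. Each window runs from 250 bases before to 50 after an annotated start, 5′ to 3′ on the gene's strand, from RefSeq (GRCh38.p14). For KMT5B, which has 3 annotated windows, the one listed first is shown. Capitals mark GGGCGG, the GC box that SP1-type factors bind, and CCAAT, on either strand, and a GC box and a CCAAT can share bases. KMT5B lies at chr11:68213599-68213898 on the minus strand, KDM5B at chr1:202808372-202808671 on the minus strand, KDM4B at chr19:4968863-4969162 on the plus strand and SETDB2 at chr13:49444024-49444323 on the plus strand.
KMT5B: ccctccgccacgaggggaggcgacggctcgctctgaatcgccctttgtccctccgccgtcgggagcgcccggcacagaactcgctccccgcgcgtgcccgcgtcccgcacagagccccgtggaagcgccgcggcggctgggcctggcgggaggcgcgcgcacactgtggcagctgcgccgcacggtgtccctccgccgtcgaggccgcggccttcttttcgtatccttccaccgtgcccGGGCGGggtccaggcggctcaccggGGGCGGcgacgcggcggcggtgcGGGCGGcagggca
KDM5B: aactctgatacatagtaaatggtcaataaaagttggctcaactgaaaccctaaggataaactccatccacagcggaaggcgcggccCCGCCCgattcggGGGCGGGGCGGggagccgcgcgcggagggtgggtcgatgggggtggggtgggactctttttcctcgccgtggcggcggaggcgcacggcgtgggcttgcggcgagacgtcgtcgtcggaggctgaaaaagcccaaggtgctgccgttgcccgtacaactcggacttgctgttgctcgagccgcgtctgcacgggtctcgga
KDM4B: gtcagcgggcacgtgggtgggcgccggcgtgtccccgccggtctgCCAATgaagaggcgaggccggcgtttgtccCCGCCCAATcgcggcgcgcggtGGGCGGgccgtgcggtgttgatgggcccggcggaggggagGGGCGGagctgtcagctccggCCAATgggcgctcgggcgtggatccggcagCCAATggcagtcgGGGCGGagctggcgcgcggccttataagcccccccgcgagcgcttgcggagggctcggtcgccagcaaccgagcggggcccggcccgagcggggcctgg
SETDB2: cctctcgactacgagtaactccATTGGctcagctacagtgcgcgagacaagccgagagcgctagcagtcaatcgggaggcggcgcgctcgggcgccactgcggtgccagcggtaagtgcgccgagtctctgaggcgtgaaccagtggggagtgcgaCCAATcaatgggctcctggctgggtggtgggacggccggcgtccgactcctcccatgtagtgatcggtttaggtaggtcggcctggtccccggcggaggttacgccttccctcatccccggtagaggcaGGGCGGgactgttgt

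These windows hold 49 CpGs in KMT5B, 34 in KDM5B, 43 in KDM4B and 29 in SETDB2. GC boxes numbered 3 in KMT5B, 3 in KDM5B, 4 in KDM4B and 1 in SETDB2. CCAAT was found 4 times in KDM4B and 2 times in SETDB2, the members that fell, and was not in the windows shown for KMT5B and KDM5B, the members that rose. Counting all windows of a gene and including these 4 members, CCAAT was present for 4 of the 9 members that rose and had a window. It was present for 3 of the 5 that fell. Outside these 4 members, KDM2B, KDM3A, KMT5C and SUV39H1 rose and had it, while EHMT2, SETD1A and SETDB1 rose without it. KDM4D fell and had it, while KDM4C and KMT2A fell without it. The contrast between the windows shown therefore did not extend to the other called members. In all, 46 of the 49 members had a window, each with at least 17 CpGs and a median over members of 34, counting the window with most CpGs of each gene, against a median of 16 over 27305 genes. GGGCGG was present for 40 of the 46 members (87.0%) and for 48.3% of all genes with a window, CCAAT for 20 (43.5%) and 39.7%, and TATAAA for 0 of 46 and 14.0%.

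All 3 H4K20 writers had a positive change, and 2 of them rose. KMT5A (SET8) places the first methyl group on H4K20, and KMT5B and KMT5C (SUV420H1 and SUV420H2) add the further ones. KMT5B (ENSG00000110066; chromosome 11, 68154863 to 68213852) had 1622, 1978, 1975 and 1340 normalized counts in Control 1 to 4 and 4543, 5440, 4724 and 3994 in DZNep 1 to 4. Every DZNep library was above every Control library, and the mean went from 1729 ± 308 to 4675 ± 597 (SD, n = 4), a log2 fold change of 1.41 ± 0.17 (SE, adjusted p = 0.000172). KMT5C rose less, from 1865 ± 191 to 2811 ± 421 (log2 fold change 0.56 ± 0.15, adjusted p = 0.0128), also without overlap. KMT5A had 2866, 3444, 3760 and 2484 normalized counts in Control 1 to 4 and 4035, 4401, 4321 and 3945 in DZNep 1 to 4. Its groups did not overlap either, but its log2 fold change of 0.38 ± 0.16 missed the threshold (adjusted p = 0.0745) and passed it with the replicate number as a block (adjusted p = 0.00788). PHF8, the eraser of H4K20 monomethylation in the list, was at 0.41 ± 0.29 (adjusted p = 0.295, or 0.00476 with the block).

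Of the 7 H3K9 writers 3 rose and 1 fell. EHMT2 (G9a), which places mono- and dimethylation, had 2920, 3669, 3282 and 4038 normalized counts in Control 1 to 4 and 6058, 6181, 6208 and 6001 in DZNep 1 to 4. The DZNep libraries all lay between 6001 and 6208, above every Control library, and the log2 fold change was 0.79 ± 0.14 (adjusted p = 0.00164). Its partner EHMT1 (GLP) was at -0.24 ± 0.14 (adjusted p = 0.204). SUV39H1, which trimethylates H3K9 in constitutive heterochromatin, had 1148, 1529, 1328 and 1443 in Control and 2398, 2262, 2088 and 2252 in DZNep libraries of the same order. It rose without overlap by a log2 fold change of 0.70 ± 0.14 (adjusted p = 0.00262), while SUV39H2 was at -0.24 ± 0.25 (adjusted p = 0.470) with Control libraries that ran from 1245 to 2883.

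SETDB1 and SETDB2, which share a bifurcated SET domain, moved in opposite directions. SETDB1, which trimethylates H3K9 and is recruited through TRIM28, had 2530, 2856, 3054 and 2561 normalized counts in Control 1 to 4 and 3752, 4228, 3527 and 3791 in DZNep 1 to 4. Its log2 fold change was 0.45 ± 0.13 (adjusted p = 0.0208). SETDB2 (ENSG00000136169; chromosome 13, 49444274 to 49495003) had 527, 562, 492 and 316 in Control 1 to 4 and 154, 184, 162 and 146 in DZNep 1 to 4. Its highest DZNep library was thus well under its lowest Control library, and it fell by 1.58 ± 0.20 on the log2 scale (adjusted p = 0.000223). The log2 ratio of SETDB1 to SETDB2 went from 2.57 ± 0.34 to 4.57 ± 0.11 (SD, n = 4). In the GENCODE annotation, 12.9% of SETDB1's exon bases are shared with CERS2 on the other strand, and since the strand setting of the counting is not stated, some reads of either gene could count for the other or for none. PRDM2 (RIZ1), the remaining H3K9 writer, was at 0.20 ± 0.23 (adjusted p = 0.530).

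Of the H3K9 erasers 1 rose and 3 fell, and the 3 that fell all belong to the KDM4 (JMJD2) family, whose members remove H3K9 and, for KDM4A to KDM4C, also H3K36 methylation. KDM4B (ENSG00000127663; chromosome 19, 4969113 to 5153598) had 1730, 1928, 2073 and 1657 normalized counts in Control 1 to 4 and 570, 597, 597 and 631 in DZNep 1 to 4. The DZNep libraries lay close together, far under the Control libraries, and the change was -1.65 ± 0.13 on the log2 scale (adjusted p = 1.92e-05), or 3.14-fold lower. KDM4C had 541, 620, 666 and 503 in Control and 381, 362, 350 and 316 in DZNep libraries, and fell by 0.75 ± 0.15 (adjusted p = 0.00274). KDM4D, the lowest member per kb in Control libraries, had 199, 238, 230 and 172 against 136, 158, 163 and 96, and fell by 0.63 ± 0.21 (adjusted p = 0.0387). KDM4A did not share this direction. It had 3230, 4895, 4121 and 2788 normalized counts in Control 1 to 4 and 4491, 5725, 4836 and 3418 in DZNep 1 to 4, higher in each of the 4 pairs of the same number, with a log2 fold change of 0.27 ± 0.22 (adjusted p = 0.345, or 0.0420 with the block). The current annotation has a read-through gene over 40.2% of KDM4A's exon bases that was not in the count table.

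The KDM3 family removes H3K9 mono- and dimethylation. KDM3A had 1101, 1723, 1629 and 1045 normalized counts in Control 1 to 4 and 2494, 2768, 3156 and 2008 in DZNep 1 to 4. Its groups did not overlap, and it rose by a log2 fold change of 0.90 ± 0.21 (adjusted p = 0.00706). KDM3B was at 0.43 ± 0.22 (adjusted p = 0.152, or 0.00364 with the block) and JMJD1C, a related protein, at 0.24 ± 0.21 (adjusted p = 0.390). The remaining H3K9 erasers are plant homeodomain proteins of the KDM7 family, with PHF2 at -0.23 ± 0.14 (adjusted p = 0.215) and KDM7A at 0.06 ± 0.28 (adjusted p = 0.882). PHF8, given above for H4K20, counts here too, at 0.41 ± 0.29 (adjusted p = 0.295, or 0.00476 with the block).

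**Figure D2:**
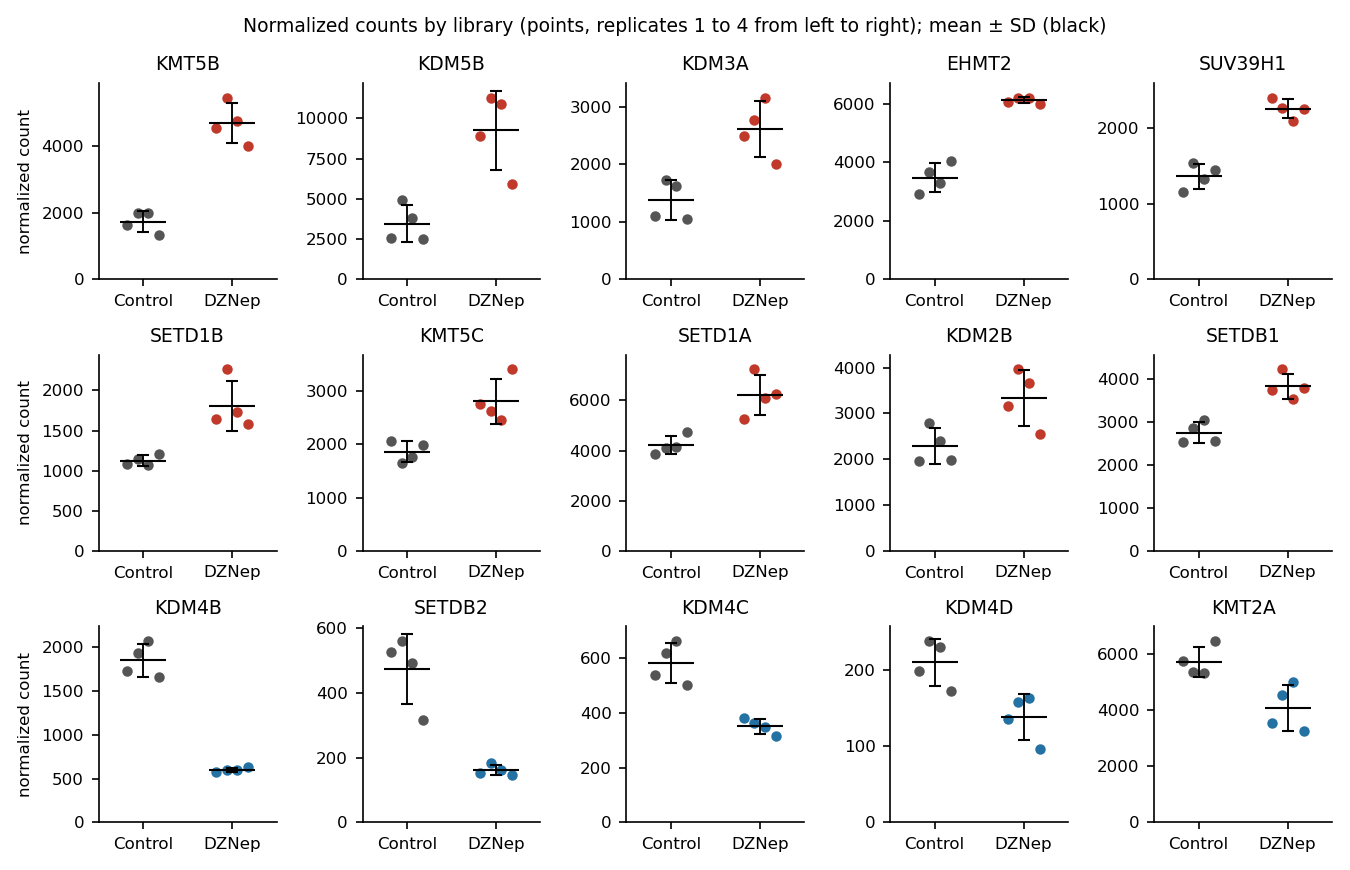
Normalized counts (vertical axes, starting at 0) of the 15 members that rose or fell, in the 4 Control (grey) and 4 DZNep libraries (red for higher, blue for lower), with the group mean and SD in black. The groups did not overlap for 14 of the 15, and KDM2B is the exception, with Control 2 at 2786 and DZNep 4 at 2562.

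Of the 7 H3K4 writers 2 rose and 1 fell, and the SETD1 and KMT2 enzymes among them work in COMPASS-type complexes. Both SETD1 enzymes, which place most H3K4 trimethylation, rose. SETD1B went from 1125 ± 64.9 to 1804 ± 315 normalized counts (log2 fold change 0.65 ± 0.15, adjusted p = 0.00618) and SETD1A from 4213 ± 363 to 6214 ± 811 (0.53 ± 0.15, adjusted p = 0.0148), each without overlap. KMT2A (MLL1) had 5742, 5366, 5342 and 6483 in Control 1 to 4 and 3542, 4549, 5004 and 3259 in DZNep 1 to 4. The DZNep libraries were all lower, and KMT2A fell by 0.51 ± 0.17 on the log2 scale (adjusted p = 0.0348). The decrease was larger in replicates 1 and 4 alone (log2 fold change -0.83) than in replicates 2 and 3 alone (-0.20). KMT2B was at 0.30, KMT2C at 0.18, KMT2D at -0.15 and SETD7, a monomethyltransferase, at -0.31 on the log2 scale, and none of the 4 passed (adjusted p from 0.203 for KMT2B to 0.552 for KMT2D).

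Of the 5 H3K4 erasers 1 rose. KDM5B (JARID1B; ENSG00000117139; chromosome 1, 202724495 to 202808487) had 2562, 4928, 3783 and 2506 normalized counts in Control 1 to 4 and 8887, 11293, 10912 and 5951 in DZNep 1 to 4. The Control libraries spanned 1.97-fold, but the lowest DZNep library was still above the highest of them, and the log2 fold change was 1.40 ± 0.27 (adjusted p = 0.00246), or 2.64-fold. KDM5C had 7850, 11515, 10286 and 7533 in Control and 11818, 15606, 13243 and 9854 in DZNep libraries, higher in 4 of 4 pairs, and was at 0.42 ± 0.20 (adjusted p = 0.123, or 0.00492 with the block). KDM5A was at -0.26 ± 0.24 (adjusted p = 0.423). KDM1A (LSD1), the most abundant member per kb, was at 0.09 ± 0.15 (adjusted p = 0.672), and its relative KDM1B was at -0.59 ± 0.37 (adjusted p = 0.228, or 0.0150 with the block), with Control libraries from 1339 to 4502.

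None of the 5 H3K36 writers passed the test. SETD2, which trimethylates H3K36 alongside elongating RNA polymerase, was at 0.49 ± 0.25 (adjusted p = 0.137, or 0.00164 with the block), NSD1 at 0.31 ± 0.26 (adjusted p = 0.373, or 0.0314 with the block) and NSD2 at -0.39 ± 0.17 (adjusted p = 0.0956, or 0.0102 with the block). These 3 changed in the same direction in 4 of 4 pairs. NSD3 and ASH1L were both at -0.11. Among the H3K36 erasers outside the KDM4 family, KDM2B, which also recruits a Polycomb complex to CpG islands, had 1961, 2786, 2393 and 1982 normalized counts in Control 1 to 4 and 3165, 3969, 3667 and 2562 in DZNep 1 to 4. It rose by a log2 fold change of 0.52 ± 0.18 (adjusted p = 0.0409) although the ranges overlapped, and KDM2A was at 0.17 ± 0.16 (adjusted p = 0.445).

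No H3K27 eraser passed. KDM6B (JMJD3) was at -0.36 ± 0.18 (adjusted p = 0.138) and KDM6A (UTX) at 0.22 ± 0.42 (adjusted p = 0.698), and KDM7A counts here too. The H3K27 writers are not among the 49 and come from the lists of other pathway genes. EZH2, the catalytic subunit of Polycomb repressive complex 2, had a mean of 2395 ± 629 normalized counts in Control and 2202 ± 143 in DZNep libraries (log2 fold change -0.15 ± 0.19, adjusted p = 0.570), and EZH1 was at -0.22 ± 0.18 (adjusted p = 0.367). DOT1L, the H3K79 methyltransferase, was among the members with the smallest changes (0.05 ± 0.13, adjusted p = 0.806). The 7 members without a settled histone lysine ran from -0.29 for KDM8 to 0.25 for SMYD5, with SETD5 at -0.22, SETD3 at -0.08, SMYD3 at -0.08, SMYD2 at 0.10 and KMT2E at 0.12, and none passed.

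**Figure D3:**
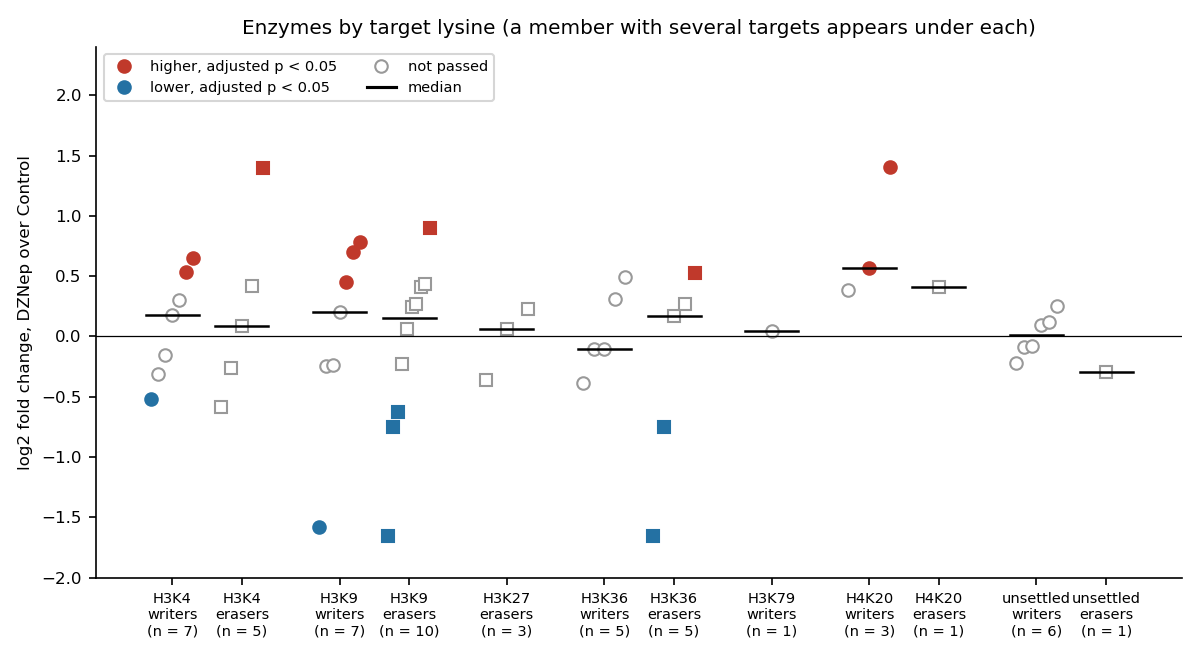
Log2 fold change (vertical axis) of the members grouped by the lysine they act on, circles for writers and squares for erasers, filled where the test was passed, with the group median as a line. A member with several targets appears under each. H4K20 writers had a median of 0.56 (n = 3), and the 5 H3K36 writers had a median of -0.11.

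Counted by lysine, 3 of 7 H3K9 writers rose and 1 fell, against 1 and 3 of 10 H3K9 erasers, and 2 of 7 H3K4 writers rose and 1 fell, against 1 and 0 of 5 H3K4 erasers. At H3K36 0 of 5 writers passed, while 1 of 5 erasers rose and 2 fell, and at H4K20 2 of 3 writers rose. Medians were 0.20 for H3K9 writers and 0.15 for H3K9 erasers, and 0.18 and 0.09 for those of H3K4. All genes tested gave 19.1% higher and 21.8% lower, and most of these shares lie within 1 or 2 genes of them. The groups are too small, and their members too related, to read a difference between writers and erasers of a lysine from these counts.

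Within families, the ratio of 2 transcripts in the same library does not depend on the size factor. Of the 49 members, 41 have a relative in the list and form 41 pairs in 15 families. An exact two-sided permutation test of the log2 ratios gave 0.0286 for 21 pairs, the smallest p that 4 against 4 libraries allow. In these 21 pairs the groups did not overlap. No share over other pairs of genes is given here, so this count has no background to be read against. After Benjamini-Hochberg adjustment over the 41 pairs this became 0.0558, so no pair passed. Whether a pair can pass depends on how many pairs reach the smallest p, so the test cannot decide on a single ratio. Pairs of the larger families also share members. The log2 ratio of KDM4A to KDM4B was 0.90, 1.34, 0.99 and 0.75 in Control 1 to 4 and 2.98, 3.26, 3.02 and 2.44 in DZNep 1 to 4. The ratio of EHMT2 to EHMT1 rose in mean from 0.65 ± 0.26 to 1.67 ± 0.07, and that of KMT5B to KMT5A from -0.86 ± 0.06 to 0.16 ± 0.12 (log2, SD, n = 4). In each of these pairs every DZNep library was above every Control library. For SETD1B to SETD1A the groups overlapped, with means of -1.90 ± 0.07 and -1.79 ± 0.14. Reads that match several relatives were left out of the counting, which used unique reads.

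**Figure D4:**
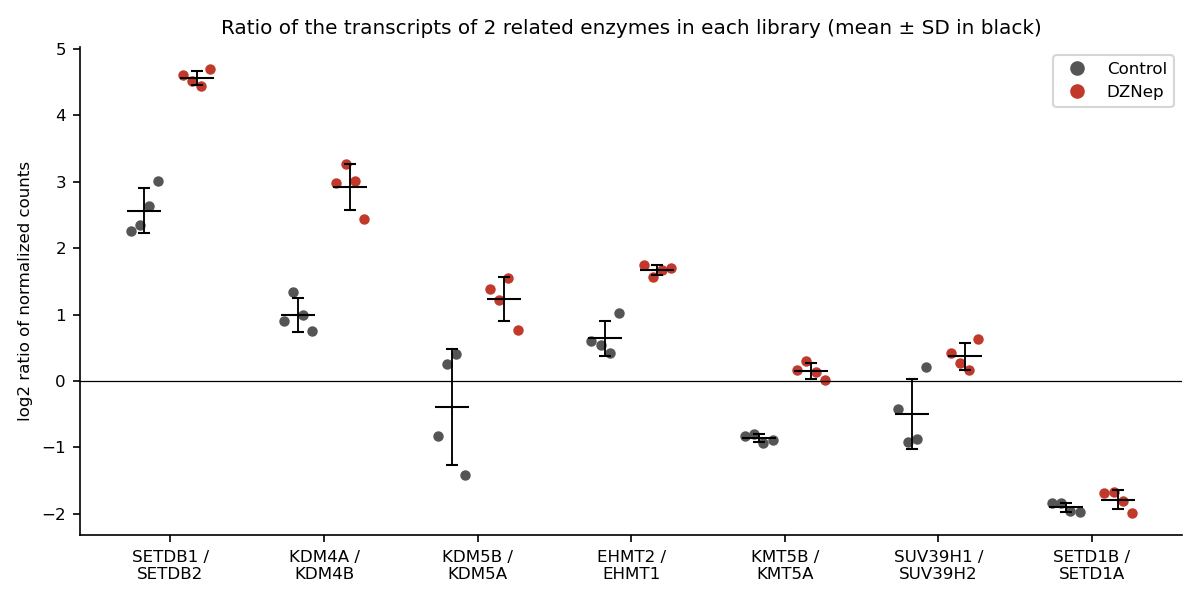
Log2 ratio of the normalized counts of 2 related enzymes (vertical axis) in each Control (grey) and DZNep (red) library, with mean and SD in black, for 7 of the 41 pairs picked after their values were seen. The groups are separate for SETDB1 to SETDB2, KDM4A to KDM4B, KDM5B to KDM5A, EHMT2 to EHMT1 and KMT5B to KMT5A, and they overlap for SUV39H1 to SUV39H2 and SETD1B to SETD1A.

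Several members that did not pass varied widely among the Control libraries. KDM6A spanned 3.69-fold over the 4 Control libraries (890, 2069, 1676 and 561 normalized counts), KDM1B 3.36-fold and SETD7 3.07-fold. Of the 34 members that did not pass, 9 spanned over 2-fold, and the share of all genes with such a span is not given here. The spread of the members followed the replicate numbers. In the Control libraries, replicates 1 and 4 were both below replicates 2 and 3 for 31 of 49 members and both above for 5, against 35.2% and 35.6% of all genes tested. In the DZNep libraries, the same order held for 36 members and the opposite for 4, against 27.5% and 27.8% of all genes. The mitochondrial share of counts was 7.76% and 13.7% in Control 1 and 4, 3.02% and 3.16% in Control 2 and 3, 7.04% and 10.1% in DZNep 1 and 4, and 4.25% and 4.44% in DZNep 2 and 3. Its part in these results was not tested.

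With the replicate number as a block, 17 members were higher and 7 lower, against 28.8% and 30.2% of all genes. The 15 members called without the block were all called with it in the same direction, and 9 were added, which are SETD2, NSD1, KMT5A, KDM3B, KDM5C, PHF8 and KDM4A as higher and NSD2 and KDM1B as lower. Writers then counted 10 higher and 3 lower, and erasers 7 higher and 4 lower. These added calls depend on the numbers pairing the libraries, which was not established. For PHF8, each DZNep library was above the Control library of its number. It had 1572, 3109, 2401 and 1236 normalized counts in Control 1 to 4 and 2683, 3622, 3025 and 1903 in DZNep 1 to 4. Over all members, 21 were higher in 4 of 4 pairs and 7 lower in 4 of 4, against 33.8% and 31.6% of all genes.

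**Figure D5:**
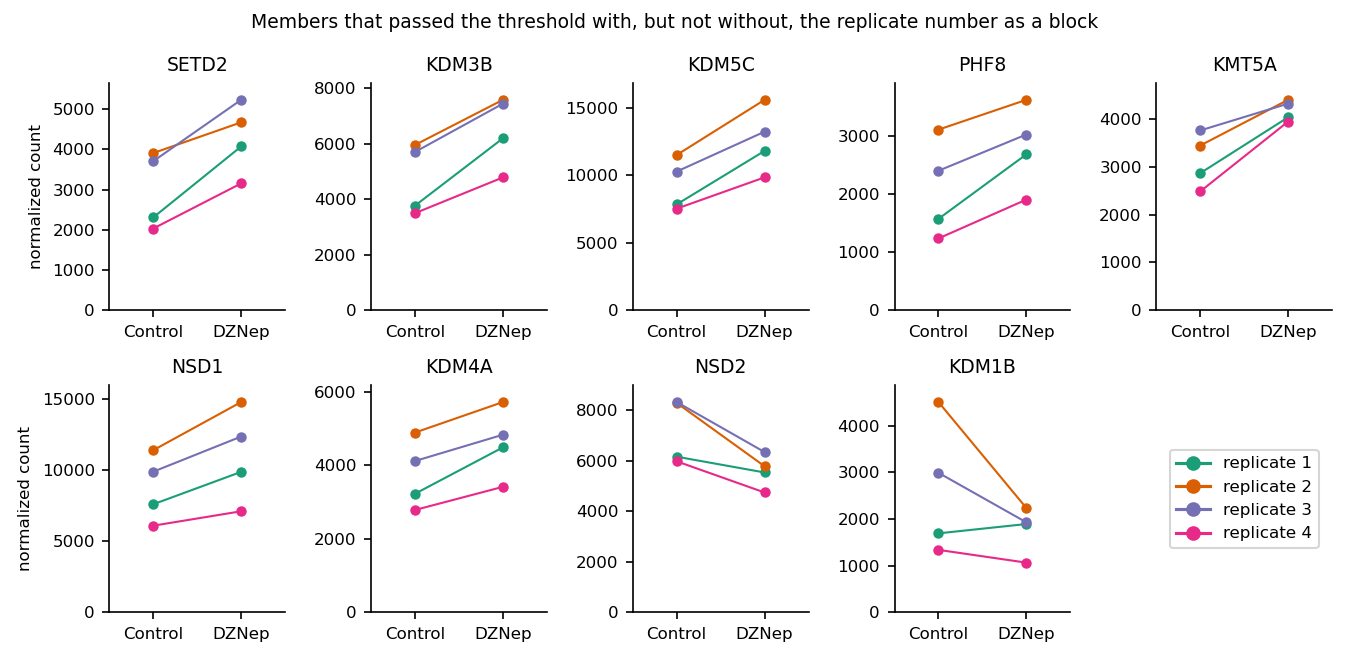
Normalized counts (vertical axes, starting at 0) of the 9 members that passed the test with, but not without, the replicate number as a block, with a line joining the Control and DZNep libraries of the same number. Of these, 7 rise in all 4 pairs, NSD2 falls in all 4, and KDM1B falls in 3 of 4.

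In 10 members every DZNep library was above every Control library (20.4%, against 19.5% of all genes), and in 5 every one was below (10.2%, against 19.4%). These were the members that passed the test except KDM2B, plus KMT5A. All 15 called members had the same sign in replicates 1 and 4 alone and in replicates 2 and 3 alone, and 11 kept their call when any 1 library was left out. The other 4 lost it. The adjusted p of KMT2A was 0.0654, 0.0526 and 0.0669 without Control 1, 3 or 4 and 0.130, 0.0512 and 0.0816 without DZNep 1, 2 or 4. That of KDM4D was 0.0611, 0.0766 and 0.0899 without Control 1, 2 or 3 and 0.106, 0.0530 and 0.0779 without DZNep 1, 2 or 4. SETDB1 was at 0.0680 without Control 1 and at 0.0508 and 0.0585 without DZNep 1 or 2. KDM2B was at 0.117, 0.0733 and 0.0881 without Control 1, 3 or 4 and at 0.0746, 0.115 and 0.106 without DZNep 1, 2 or 3. These calls lay close to the threshold, and their log2 fold changes kept their sign throughout. All 15 members were called on these same libraries, so a kept sign or call is not separate support. The share of all called genes that kept theirs is not given here.

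The partners of these enzymes were taken from lists of complex subunits and cofactors, and their counts stand beside 19.1% of all genes higher and 21.8% lower, or 28.8% and 30.2% with the block. Of 14 subunits and cofactors of COMPASS-type complexes 2 rose (RBBP5, 0.57, and MEN1, 0.43) and 4 fell (BOD1L1, -1.07, PSIP1, -1.01, BOD1, -0.73, and WDR5, -0.36), shares of 14.3% and 28.6%. PSIP1, which tethers KMT2A and menin to chromatin, went from 17821 ± 4536 to 9020 ± 958 normalized counts (adjusted p = 0.00266). Of 13 partners of KDM1A, 3 rose, which are the repressor GFI1B (2.61 ± 0.35, from a mean of 6.77 normalized counts), the corepressor RCOR3 (0.98 ± 0.16) and HDAC1 (0.66 ± 0.15), and 2 fell (GFI1, -0.55, and GSE1, -0.54). With the block these were 6 higher and 5 lower. Of 13 partners in H3K9 silencing 5 rose and 1 fell (MORC2, -0.62 ± 0.13). With the block 5 were higher and 3 lower, and MPHOSPH8 (-0.88) and TASOR (-0.38) were added as lower. ATF7IP, which stabilizes SETDB1, rose from 4564 ± 251 to 8919 ± 1339 (log2 fold change 0.94 ± 0.15). ZNF644 rose by 0.74, CBX1 by 0.60, PPHLN1 by 0.52 and WIZ, a zinc finger partner of EHMT1 and EHMT2, by 0.51 ± 0.15. TRIM28 was at -0.04 ± 0.18 without passing. Of 7 DOT1L partners AFF1 rose (1.02 ± 0.29) and MLLT1 fell (-0.80 ± 0.14), and with the block AFF4 was added as higher. The block also added HCFC1 among the COMPASS subunits (3 higher, 4 lower) and RIOX1 among the enzymes that follow (3 higher, 2 lower). Of 13 other enzymes of lysine methylation that were tested, PRDM9 (2.67 ± 0.37, from a mean of 14.3 normalized counts) and MECOM (0.63 ± 0.18) rose, and PRDM16 (-2.26 ± 0.20) and SETMAR (-0.41 ± 0.14) fell.

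The libraries held between 25043058 and 44902779 counts, and 0 counts in the shallowest leave room for a transcript at up to 1.20e-05% of the total, from counting error alone. All 10 markers listed for HEK293T were detected, and 5 of them changed. KRT8 (log2 fold change 2.44) and KRT18 (0.83) rose, and INA (-0.63), NES (-0.81) and PAX2 (-0.54) fell. Among all genes tested, 19.1% were higher and 21.8% lower. The 5 markers of differentiated kidney reported here were at or near 0 (summed normalized counts of 0 to 6.27 in Control and 15.3 to 26.3 in DZNep libraries, with UMOD at 0 in every library). The 5 blood markers summed to 148 to 304 and 159 to 354. Among them, HBB was at 0 in every library. CD3E, which did not pass the filter on low counts, was at 0 in every Control library and at 8.16, 16.9, 15.5 and 40.5 in DZNep 1 to 4. The 4 endothelial and fibroblast markers summed to 2488 to 4767 and 2585 to 5173, of which COL1A1 alone had means of 3047 and 3910. Among these 4, VWF rose from a mean of 2.81 to 103 normalized counts (log2 fold change 5.19), which the sums do not show. The part of these markers in the results was not tested. In bulk libraries, fewer cells of a kind and less RNA per cell cannot be told apart.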

How the data were processed

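The 8 libraries were grouped by treatment and numbered from the titles. Paired 150 bp reads were trimmed by the authors (Trimmomatic 0.36) and aligned to GRCh38 (STAR 2.5.2b), and uniquely aligned reads over exons were summed per gene (featureCounts, Subread 1.5.2). They deposited raw counts of 57500 genes and a signal of normalized counts for 19118 genes, each the count over 1 size factor per library. The annotation release and strandedness are not given in the sources used here. Libraries of a group differed by more than sampling noise.

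Counts were tested with edgeR 4.0.16 (R 4.3.3), using TMM, filterByExpr, the quasi-likelihood test and Benjamini-Hochberg adjustment over 19171 genes. Standard errors are the log2 fold change over the root of the F statistic. The study's test was DESeq2's, an alternative here (1.42.0), as were limma 3.58.1 on log2(normalized count + 1) and + 0.1, other scalings and filters, the block and leaving out each library. On counts simulated for this comparison over 18772 genes, edgeR recovered 49 of 100 genes changed by 1 on the log2 scale and 98 of 100 changed by 2, with 9 false calls. The simulated libraries were drawn independently, without a split by replicate number, and the changed genes were well counted. These figures may therefore not hold for the measured libraries. Deviations of same-numbered libraries correlated (0.136, 0.492, 0.429 and 0.673 for replicates 1 to 4), and the numbers were used as the block. Libraries of different numbers were not compared in this way. Both groups shared a split by replicate number, which can give such values without pairs. The correlations therefore cannot decide whether a number marks a true pair. A pair here means a Control and a DZNep library of the same number. The main test did not use the numbers. Coordinates come from GENCODE on GRCh38, and 56410 identifiers had a symbol.

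The members and lists were chosen with earlier results of these data known. Values in every library are given for the 5 highest and 5 lowest called members and for relatives whose calls differ; others were added after their values were seen, as were the splits into replicates 1 and 4 and replicates 2 and 3. The result of 1 marker gene is not reported here.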

Additional observations from a re-analysis of the deposited data

Results flagged for a closer look

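KDM8, an oxygenase without a settled histone lysine target, had 453 normalized counts in Control 4, where the other 3 Control libraries had 277 to 305. The gap of Control 4 to the nearest library was 0.843 of the range of the group, above Dixon's 95% critical value for 4 samples. It was the 1 flag among 98 groups of 4 (49 members in each treatment group), where chance flags about 1 in 20. Without Control 4, KDM8 was at -0.12 on the log2 scale in place of -0.29, and it did not pass the test in either fit.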

How the results depend on the processing

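All 15 called members kept their direction in all 18 alternatives, and KMT5B, KDM5B, KDM3A, EHMT2, SUV39H1, KMT5C, SETDB2 and KDM4B kept their call in all of them. The alternatives used the libraries on which the members were called, so a kept direction is not separate support. DESeq2, median-ratio size factors, both limma fits, at least 10 reads in every sample and the replicate block kept all 15 calls. KDM4D was lost in 10 alternatives, KMT2A in 9, KDM2B in 8 and SETDB1 in 5, and KDM4C, SETD1A and SETD1B in 1, replicates 1 and 4 alone. Writers lower counted 1 in place of 2 with library sizes alone and with no filter on low counts, 4 with replicates 2 and 3 alone, and 1 to 2 with 1 library left out. Erasers higher counted 7 in place of 3 with the replicate block, 5 with replicates 1 and 4 alone, and 2 to 3 with 1 library left out. The median log2 fold change of writers was 0.23 with library sizes alone and 0.19 with either limma fit, and 0.06 to 0.17 with 1 library left out. That of erasers was 0.20 with library sizes alone and from -0.00178 (without Control 4) to 0.24 with 1 library left out. The cause of these shifts was not tested. Signs of members near 0 turned with 1 library left out, over ranges of -0.017 to 0.35 for KMT2E, -0.26 to 0.060 for NSD3, -0.28 to 0.11 for ASH1L, -0.0070 to 0.10 for DOT1L, -0.16 to 0.0050 for SMYD3, -0.033 to 0.54 for KDM6A and -0.11 to 0.24 for KDM7A, none of which passed there. All members had at least 85 counts in each library.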
